A study of Brassica rapa and Brassica oleracea and Brassica napus with 3 samples.

Results

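Genes with 10 or more exons were examined for DNA methylation in *B. napus* ZS11, an allotetraploid oilseed rape whose An subgenome derives from *B. rapa* and whose Cn subgenome derives from *B. oleracea*. A gene was a member if its first transcript in the deposited file had 10 or more exon rows, a rule that uses no methylation value. The rule took 11347 of the 96916 genes on the numbered chromosomes (11.7%), of which 5815 of 52557 lay in Cn (11.1%) and 5532 of 44359 in An (12.5%). The members had a median of 13 exons in Cn and 13 in An, and the largest numbers were 61 in Cn and 62 in An. The remaining 46742 Cn genes and 38827 An genes, with 9 exons or fewer, served for comparison. Cn and An genes were kept apart throughout.

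The data came from 1 BS-seq library, with no replicate, made from young leaves of 14 d old plants. In BS-seq, bisulfite changes unmethylated cytosines so that they are sequenced as thymine, and the share of cytosines left unchanged gives the methylation level. The methods describe bisulfite treatment of genomic DNA, whereas the extraction protocol in the sample labels describes RNA, a conflict that the file alone does not settle. No test over plants was possible, and the spread given below is the SD of the chromosome means (9 in Cn, 10 in An), which measures variation between chromosomes and not between plants.

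Plant DNA is methylated at CG, CHG and CHH sites, where H is any base but G. Transposons carry methylation at all of these sites, kept there partly by small RNAs (RNA-directed DNA methylation), and are transcriptionally silent as a rule. In *Arabidopsis*, many moderately and constitutively expressed genes carry CG methylation alone in the body of the transcribed region, with a depletion toward both gene ends, and such genes tend to be long. Introns of plant genes can also hold transposons that are methylated inside an expressed gene. The levels used here are given without a cytosine context, so these kinds of methylation could not be told apart.

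Each gene row held 12 bins in the direction of transcription, with 4 bins before the gene (upstream flank), 4 within it (gene body) and 4 after it (downstream flank). A level is the mean of the bins of a region that had a value, in percent of cytosines read as methylated, and a region with fewer than 2 such bins was given none. A gene body level was available for 5767 of the Cn members and 5456 of the An members. The number of reads behind a bin is unknown, and a bin that covers few cytosines or few reads is more easily read as exactly 0 or as very high. The fractions were used as deposited, with no correction for incomplete bisulfite conversion, so low levels were not separated from unconverted cytosines.

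The many-exon genes had the lower mean gene body methylation and yet the higher median. The mean gene body level was 2.79% ± 0.232 in Cn members and 5.60% ± 0.369 in the other Cn genes (SD of chromosome means, n = 9). In An it was 2.08% ± 0.308 in members and 3.89% ± 0.958 in the other genes (n = 10). The difference of the means was -2.81 points in Cn and -1.81 points in An, and members were lower on 9 of 9 C chromosomes and on 10 of 10 A chromosomes. The medians stood in the opposite order, at 1.52% in Cn members against 0.788% in the other Cn genes, and at 1.18% in An members against 0.408% in the other An genes. The members' median was the higher one on 9 of 9 C and on 10 of 10 A chromosomes. Both tails of the distribution were thin among the members, as the next counts show.

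Fully unmethylated gene bodies were rare among the members. A level of exactly 0 was found in 86 of the Cn members (1.49%), beside 19.2% of all Cn genes, and in 101 of the An members (1.85%), beside 21.0% of all An genes. Heavily methylated bodies, of at least 20%, were rare too. They numbered 99 in Cn members (1.72%), beside 9.57% of all Cn genes, and 48 in An members (0.880%), beside 6.03% of all An genes. Members made up 2.07% of the heavily methylated Cn genes and 11.6% of the Cn genes with a level, and in An 1.97% and 13.5%. With these heavily methylated bodies left out on both sides, the difference of the gene body means was -0.320 points in Cn and -0.0242 points in An, so most of the lower mean lay in this class. The low but non-zero range of 1% to under 5% held 3155 Cn members (54.7%), against 25.0% of all Cn genes, and 2722 An members (49.9%), against 24.3% of all An genes.

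**Figure D1:**
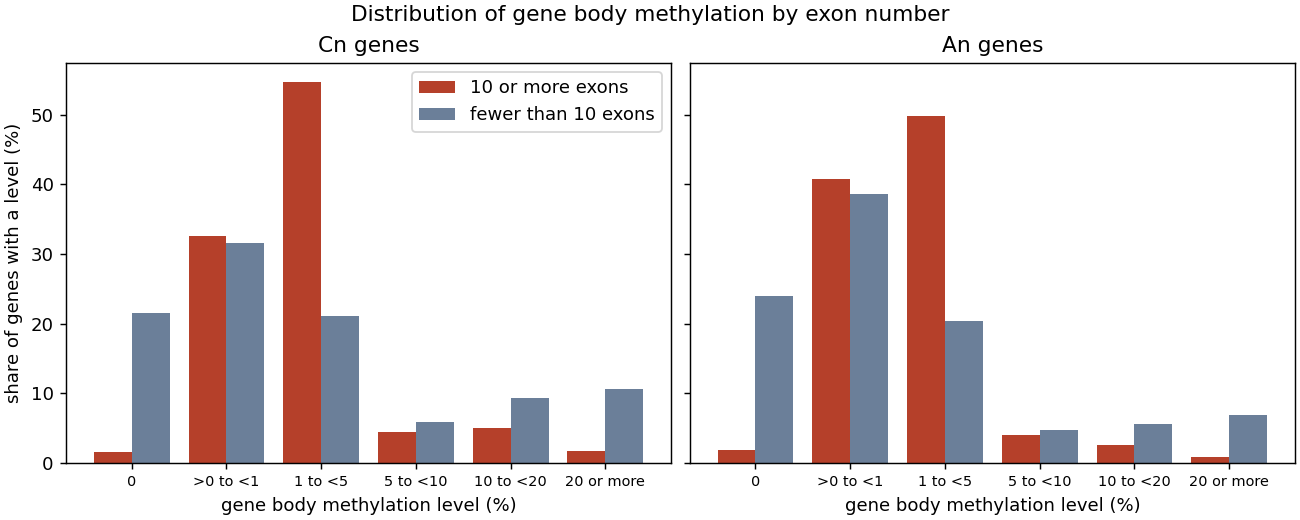
Share of genes (y axis, percent of genes with a level) in 6 classes of gene body methylation (x axis, percent), for genes with 10 or more exons (red) and fewer (blue) in Cn (left) and An (right), from 1 library. The class of 1% to under 5% holds 54.7% of Cn and 49.9% of An genes with 10 or more exons, and the classes at 0 and at 20% or more are both smaller than in the other genes.

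The share of gene body bins at exactly 0 moved with this contrast. It was 10.3% in Cn members against 39.9% in the other Cn genes, and 11.6% in An members against 44.5% in the other An genes. Gene body bins without any value made up 1.18% in Cn members against 7.63% in the other Cn genes, and 1.49% in An members against 11.5% in the other An genes. Annotation differed as well, since a 5′ untranslated region was annotated for 48.4% of Cn members against 10.9% of the other Cn genes and for 51.0% of An members against 12.7% of the other An genes. Gene length was not given in the file, and the part that bin size, depth and annotation have in the contrast was not tested.

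Along the gene, the mean levels of the members showed a deep trough bounded by methylated flanks. In Cn members the mean was 7.42% in the flank bin next to the gene start and 2.31% in the first body bin, a 3.21-fold step, against a 1.64-fold step in the other Cn genes. In An members the same bins held 6.19% and 1.75%, a 3.53-fold step, against 1.80-fold in the other An genes. Within the body, levels were highest in the inner bins, at 3.15% and 3.18% in Cn members and at 2.37% and 2.36% in An members. The last body bin came down again to 2.50% in Cn members and 1.83% in An members. The step of the means out of the gene at its end was 2.17-fold in Cn members against 1.38-fold in the other Cn genes. In An it was 2.16-fold in members against 1.54-fold in the other genes. The medians of members fell at this end, from 1.21% to 0.731% in Cn and from 0.892% to 0.298% in An. In the other genes they rose, from 0.498% to 1.92% in Cn and from 0.214% to 0.541% in An. At the gene start the members' medians fell into the body, from 2.04% to 0.782% in Cn and from 0.797% to 0.586% in An. In the other genes they fell further, from 2.95% to 0.174% in Cn and from 0.694% to 0.081% in An. The steeper step of the members at the gene start was thus seen in the means and not in the medians.

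The flanks of the members were unequal. The upstream flank averaged 10.7% ± 0.507 in Cn members against 11.3% ± 0.386 in the other Cn genes, with members lower on 8 of 9 chromosomes. In An it averaged 8.30% ± 1.01 in members against 8.49% ± 1.11 in the other genes, and this difference of -0.181 points was smaller than its SD over chromosomes of 1.05. The upstream difference changed sign once gene bodies of 20% or more were left out, to 0.140 points in Cn and 0.857 points in An. The downstream flank averaged 7.37% ± 0.425 in Cn members against 9.66% ± 0.419 in the other Cn genes, and 5.26% ± 0.453 in An members against 7.25% ± 1.19 in the other An genes. Members were lower downstream on 9 of 9 C and 10 of 10 A chromosomes. The excess of the upstream over the downstream flank was therefore 3.37 points in Cn members against 1.67 in the other Cn genes, and 2.98 points in An members against 1.24 in the other An genes.

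**Figure D2:**
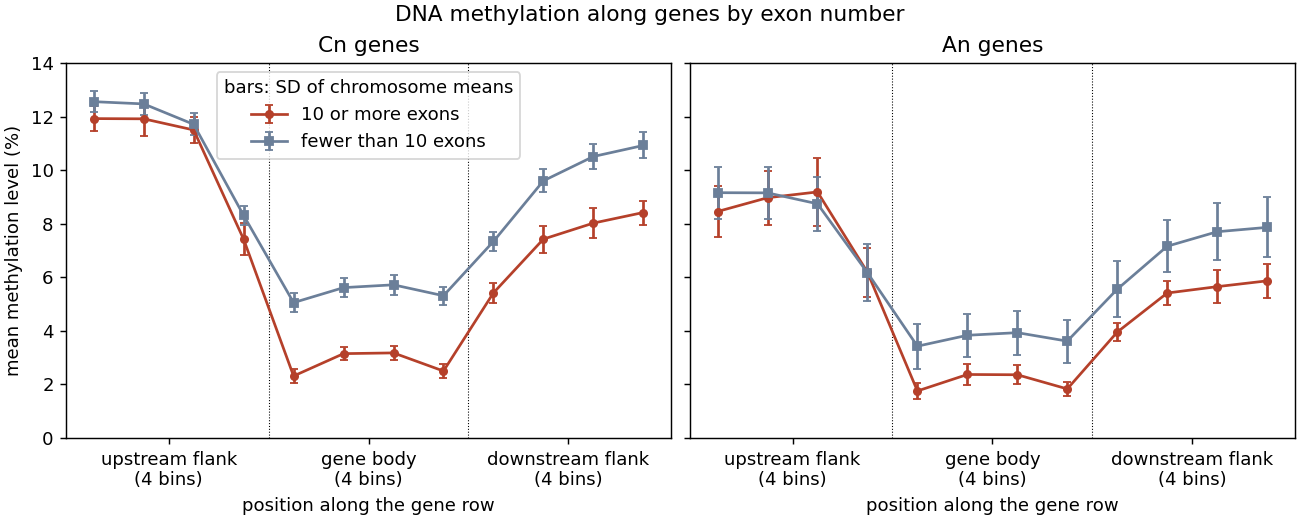
Mean methylation level (y axis, percent) in the 12 bins of the gene row (x axis, upstream flank, gene body, downstream flank), for genes with 10 or more exons (red) and fewer (blue) in Cn (left) and An (right). Bars are the SD of the chromosome means; genes with 10 or more exons reach 2.31% (Cn) and 1.75% (An) in the first body bin, below the other genes, whereas the upstream bins of both sets lie close together.

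When each member was set against the mean of the nearest gene with fewer than 10 exons on either side of it, a comparison added after the values had been seen, the contrast in the gene body was smaller. The gene body mean was 2.79% in Cn members against 4.58% in their neighbours and 2.07% in An members against 3.01% in their neighbours, lower in members on all 9 C and all 10 A chromosomes. The downstream difference, members minus neighbours, was -0.891 points in Cn and -0.628 points in An. The mean of the upstream flank turned round, with 10.7% in Cn members against 10.1% in neighbours, and 8.31% in An members against 7.14% in neighbours, higher in members on 9 of 9 C and 9 of 10 A chromosomes. Gene by gene the order was the same as that of the means downstream, and the opposite upstream and in the gene body. Downstream, 59.8% of Cn and 61.8% of An members lay below their neighbours (median differences -1.08 and -0.659 points). Upstream, 54.0% of Cn and 52.8% of An members lay below their neighbours (median differences -0.478 and -0.158 points). In the gene body 51.1% of Cn and 54.8% of An members lay above them (median differences 0.0443 and 0.152 points). A single member was set here against a mean over neighbours, which is less often near 0 than a single gene. The effect of this averaging on the shares and median differences was not tested.

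From 2 exons on, the limit of 10 exons fell within a gradual trend, while genes with 1 exon lay outside it, at a mean of 5.56% in Cn and 3.17% in An. In Cn the mean gene body level was 6.59% in genes with 2 to 3 exons, 5.29% with 4 to 5, 4.06% with 6 to 7, 3.65% with 9, 3.27% with 10, 2.55% with 15 to 19 and 2.22% with 30 to 61 exons. In An it was 4.71% with 2 to 3 exons, 2.57% with 9, 2.18% with 10, 2.10% with 15 to 19 and 1.79% with 30 to 62 exons. Genes just inside and just outside the limit thus differed by less than the SD of their chromosome means (0.438 and 0.397 in Cn, 0.544 and 0.397 in An). The medians went the other way, at 0.803% with 2 to 3 exons and 1.78% with 30 to 61 exons in Cn, and at 0.358% with 2 to 3 and 1.53% with 30 to 62 exons in An. The share of bodies at 20% or more was 13.5% with 2 to 3 exons in Cn, 3.30% with 10 exons and 0.303% with 20 to 29 exons. In An none of the 143 genes with 30 to 62 exons and a level reached 20%.

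**Figure D3:**
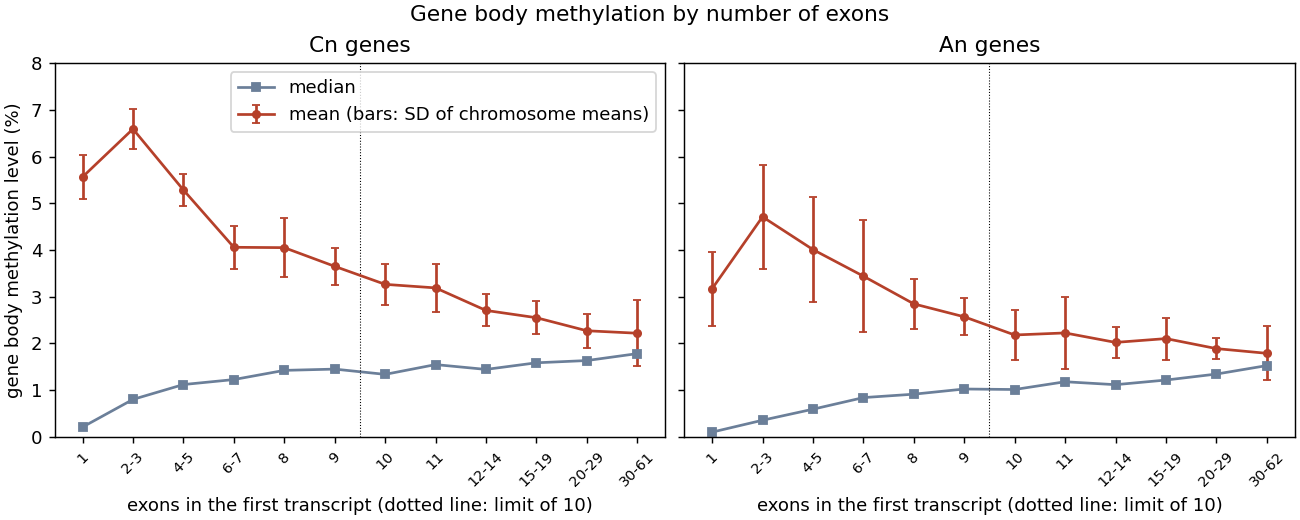
Mean (red, bars are the SD of chromosome means) and median (blue) gene body methylation level (y axis, percent) by number of exons in the first transcript (x axis), in Cn (left) and An (right). Mean and median approach each other with more exons, and in Cn genes with 30 to 61 exons they were 2.22% and 1.78%.

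Among the members themselves exon number hardly ordered the gene body level. The rank correlation was 0.0595 over 5767 Cn genes and 0.0896 over 5456 An genes, all from the same library, and genes on a chromosome can share local methylation. Of the members with the most exons, BnaA06G0043000ZS (62 exons) had 3.18% in the gene body, above the upper quartile of An members (2.15%), between flanks of 10.5% and 2.42%, and BnaC03G0573200ZS (61 exons) had 1.34% between flanks of 25.0% upstream and 1.67% downstream. Of the 59 exons of BnaA06G0043000ZS with a level, 7 reached 10%, the highest at 27.5%. No exon of BnaC03G0573200ZS with a level reached 10%, although only 27 of its 61 exons had one. The file and the annotation used here gave no gene names or functions for these identifiers.

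The exon rows of the members resolved where in the gene the methylation lay. Mean exon methylation was lowest in the first exon, climbed to about the sixth exon and declined toward the last. In Cn members the means from the first to the tenth exon were 1.16%, 1.47%, 1.72%, 2.04%, 2.45%, 2.77%, 2.73%, 2.56%, 2.49% and 2.40%. In An members they were 0.792%, 1.01%, 1.25%, 1.71%, 2.03%, 2.13%, 2.15%, 2.13%, 2.02% and 1.84%. The last exon averaged 1.71% ± 0.247 in Cn and 1.22% ± 0.212 in An, above the first exon (1.16% ± 0.289 and 0.792% ± 0.221) and below the inner ones. The median exon was at 0 at each of these positions, so the arch lay in the minority of exons with methylation. Exons of at least 10% made up 3.45% of first exons and 9.14% of the sixth exons in Cn members, and 2.55% and 6.64% in An members.

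**Figure D4:**
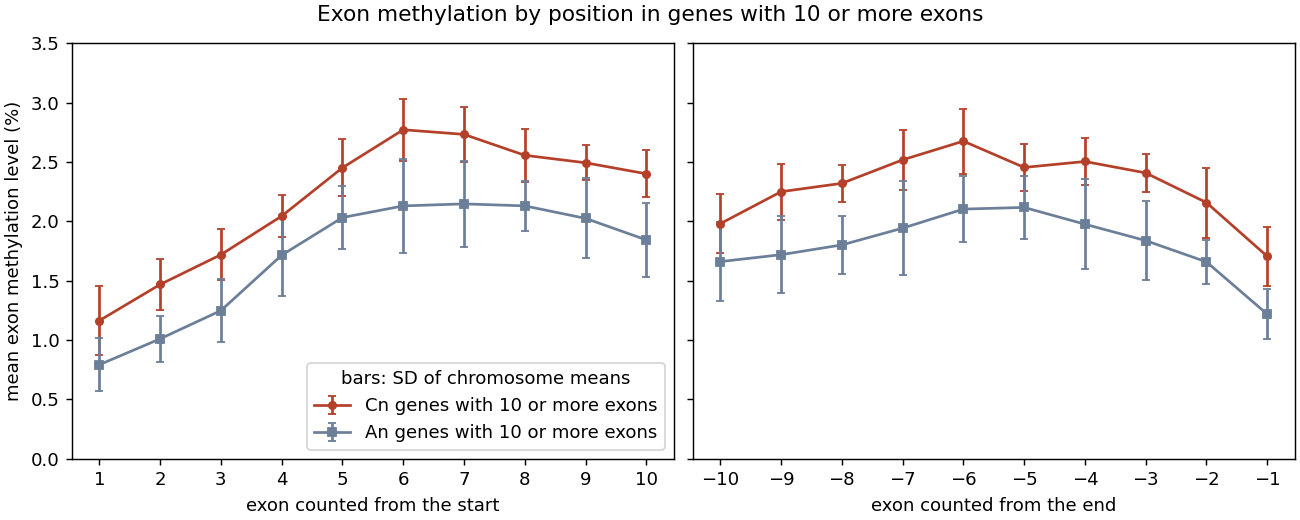
Mean exon methylation level (y axis, percent) by exon position counted from the start (left) and from the end (right, where -1 is the last exon), in Cn (red) and An (blue) genes with 10 or more exons. Bars are the SD of the chromosome means; both subgenomes show an arch, from 1.16% (Cn) and 0.792% (An) in the first exon to 2.77% (Cn) and 2.13% (An) in the sixth.

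The arch was also seen within classes of exon number. In Cn members with exactly 10 exons the first exon averaged 1.36% and the highest position, the seventh, 2.97%. In Cn members with 20 to 61 exons the first exon averaged 0.608% and the highest of the first 20 positions, the seventh, 2.71%. In An the same classes gave 0.843% and 2.30% (10 exons, highest at the fifth) and 0.675% and 2.26% (20 to 62 exons, highest at the sixth). Highest positions were picked from these values and are given as a description. Genes with 5 to 9 exons had a flatter course. Their first, inner and last exons averaged 2.95%, 3.12% and 3.16% in Cn, whereas the inner exons of Cn members were 1.97-fold above the first exon and 1.35-fold above the last. In An the inner exons were 2.33-fold above the first and 1.51-fold above the last in members, against 1.27-fold and 0.968-fold in genes with 5 to 9 exons. Exons of 20% or more were more frequent in genes with 5 to 9 exons, at 5.13% against 2.10% in Cn members. In An the shares were 3.25% and 1.45%. The part of these exons in the flatter course was not tested.

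Of the genes with a level in the first, middle and last exons, 60.5% of 4807 Cn members and 60.9% of 4687 An members had middle exons above both the first and the last exon, and 3.08% and 3.31% had them below both. The middle exons, those in the central part of the exon order, averaged 2.55% in Cn members against 1.15% in the first exon of the same genes, with the middle higher in 72.3% of 5108 genes and lower in 11.3%. In An the middle exons averaged 2.06% against 0.786%, higher in 70.7% of 4930 genes and lower in 11.8%. Against the last exon the middle was higher by 0.932 points in Cn members and by 0.891 points in An members, higher in 65.1% of Cn and 65.5% of An genes and lower in 20.8% and 18.3%. Several middle exons were averaged, which leaves fewer genes at exactly 0 there than in a single end exon. In Cn members 75.8% of first and 60.5% of last exons were at exactly 0, and in An members 76.9% and 63.8%. The effect of this averaging on the shares was not tested, and the shares were not set against genes with fewer exons. The later exons exceeded the earlier ones by a smaller amount, 0.331 points in Cn and 0.320 points in An, on all 9 C and all 10 A chromosomes.

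Methylation was unevenly shared among exons. Of the 73795 exons with a level in Cn members 66.8% were at exactly 0, 6.69% were at 10% or more and 2.10% at 20% or more. Of 72017 exons in An members 69.6% were at 0, 5.05% at 10% or more and 1.45% at 20% or more. In genes with 5 to 9 exons most exons were at 0 as well, with 63.6% at 0, 9.86% at 10% or more and 5.13% at 20% or more in Cn, and 68.7%, 6.31% and 3.25% in An. At least one exon of 10% or more occurred in 2570 Cn members (44.2%) and 2076 An members (37.5%). Runs of 3 or more consecutive exons of at least 10% were found in 175 Cn members (3.01%) and 114 An members (2.06%), and runs of 5 or more in 47 Cn and 32 An members. The longest run was 11 exons in Cn and 11 in An. Counts per gene grow with the number of exons and were not set against the other genes.

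Neighbouring exons resembled each other more than distant ones. When an exon of a Cn member was at 10% or more, the next exon was so in 26.1% of cases, against 6.60% of all next exons, and the exon 8 places on was so in 17.0%. In An members the values were 22.4% for the next exon, against 5.09% of all next exons, and 13.3% at 8 places. The rank correlation of exon levels was 0.214 over 61085 pairs at 1 place and 0.0727 over 29488 pairs at 8 places in Cn, and 0.192 over 60645 and 0.0546 over 29603 pairs in An. Exons of one gene share their library and their region, and no p-value is attached.

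Some members switched between methylated and unmethylated exons within the gene. BnaC01G0132700ZS, with 17 exons, had 45.7%, 20.3% and 14.6% in its first 3 exons, no level in exon 4, and 25.9% to 60.3% in exons 5 to 10. Exons 11 to 14, 16 and 17 were at 0 and exon 15 was at 5.56%. BnaC07G0102000ZS, with 16 exons, was the mirror image, since every exon with a level up to exon 10 was at 0, and exons 11 to 16 were at 19.4%, 55.3%, 65.2%, 35.7%, 39.9% and 12.8%. Its downstream flank was near 0, at 0.765%, so this methylated stretch ended with the gene. Its upstream flank was at 18.3%, beside exons at 0.

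A gradual rise was seen in BnaC04G0346800ZS, in which exons 1 to 3 were at 0, exon 7 at 10.0%, exon 14 at 33.4% and exons 15 and 16 at 72.2% and 69.6%. BnaC04G0102900ZS fell off in the other direction, with 13.9%, 31.4%, 45.3%, 45.8% and 35.1% in exons 1 to 4 and 6, and 0 in exons 7 to 10, 12 and 13. Its upstream flank was at 31.9% and its downstream flank at 0. The An gene BnaA02G0240800ZS had 22.3% to 37.9% in exons 1 to 5 and at most 2.12% in exons 8 to 12, yet only 0.741% upstream. BnaA07G0219300ZS was at 0 to 7.84% in exons 1 to 5 and at 14.7% to 47.0% in exons 6 to 12, with 10.2% upstream and 0.463% downstream. The flank beside the methylated exons was thus methylated in BnaC04G0102900ZS and nearly unmethylated in BnaC07G0102000ZS, BnaA02G0240800ZS and BnaA07G0219300ZS.

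A few members were methylated over most or all of their exons. BnaA09G0059500ZS, with 19 exons, had the highest gene body level among the members that met the rule for named genes. Its 4 upstream bins were at 0, 0, 0 and 8.42%, its gene body bins at 37.4%, 38.2%, 40.2% and 44.0%, and its downstream bins at 15.2%, 0.0938%, 0 and 0.0979%. All 16 exons with a level were at 10% or more, between 15.2% and 77.8%. In BnaC04G0527000ZS all 11 exons were at 13.1% to 85.7%, the upstream flank was at 2.31%, the gene body at 31.5% and the downstream flank at 12.6%. BnaC07G0106700ZS had the highest gene body level of the named Cn members, 37.4%, with 7 of 8 exons with a level at 10% or more and exon 9 at 2.43%, but lay between flanks of 23.9% and 29.1%. The first 2 genes were thus methylated over the gene body and little before it, whereas the third was methylated throughout the window.

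In other members the gene row, which also covers the introns, was methylated and the exons were hardly so. BnaC03G0486400ZS, with 11 exons, had body bins of 20.5%, 39.5%, 35.7% and 17.3%, while its exons lay between 0 and 3.13% and its flanks at 0.734% and 0.208%. BnaC02G0484100ZS had 27.8% in the gene body and no exon above 0.281%. In An, BnaA02G0272600ZS had 32.2% in the gene body against 1.55% over its exons, and BnaA05G0037200ZS had 27.8% against 3.17%, with flanks of 0.167% and 0.466%. BnaC01G0304600ZS had 32.8% against 3.94% and lay between flanks of 42.8% and 22.0%. The opposite order was seen in BnaC01G0277200ZS, whose exons 1 and 2 were at 64.0% and 100%, whose other exons were at or near 0, and whose gene body was at 2.08%.

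**Figure D5:**
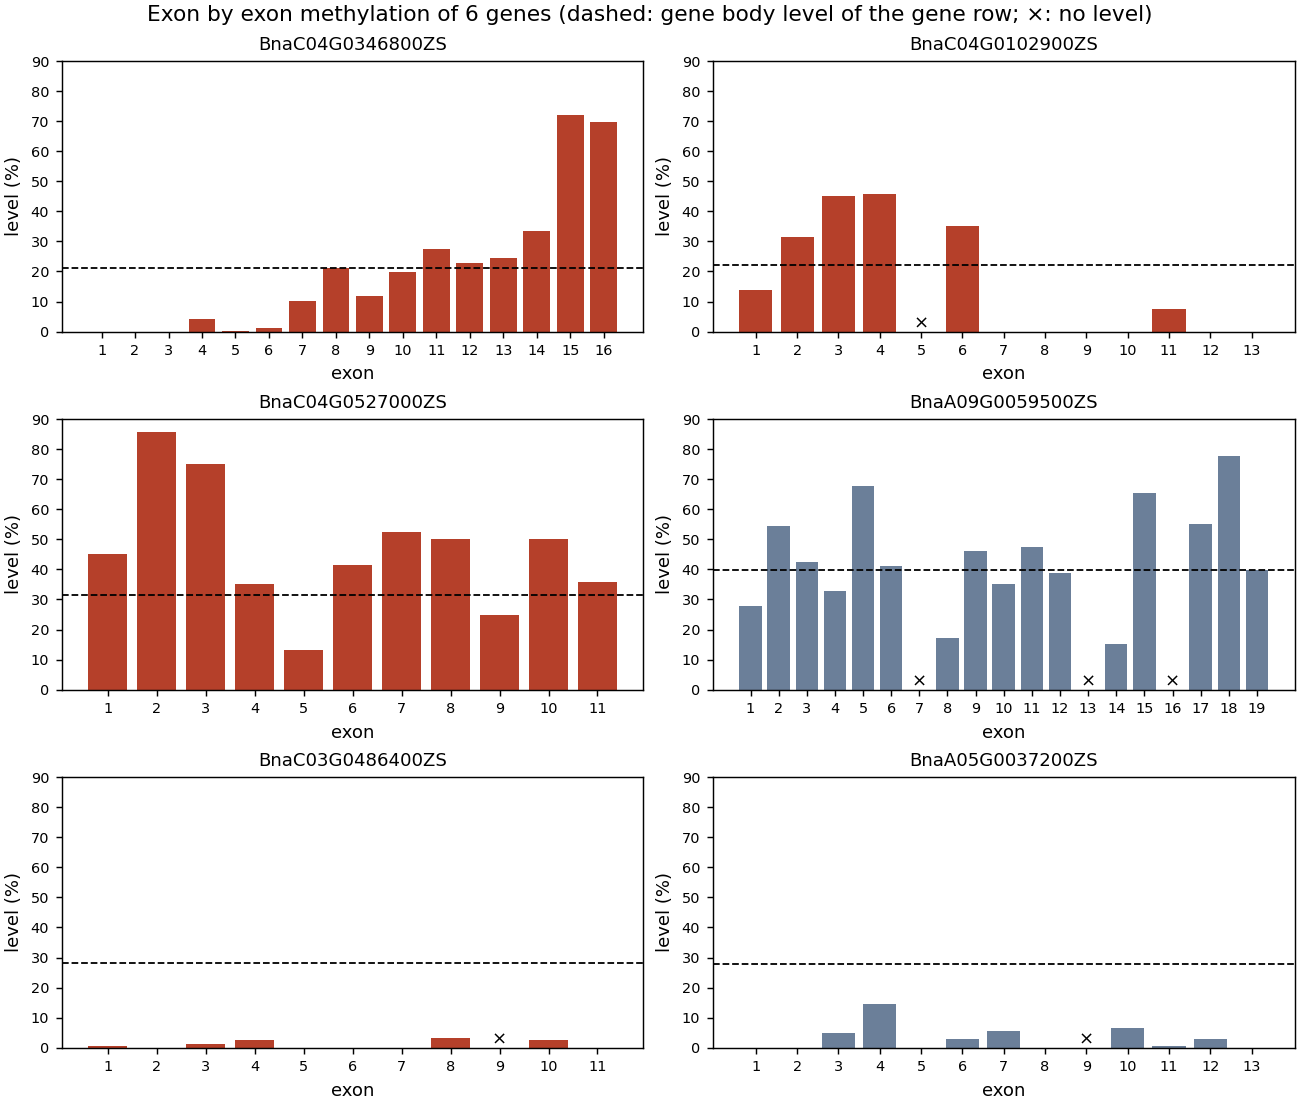
Methylation level (y axis, percent) of each exon (x axis, exon number) in 6 named genes, Cn in red and An in blue, with the gene body level of the gene row as a dashed line and a cross for an exon without a level. From top to bottom the pairs show a change along the gene (exons 15 and 16 of BnaC04G0346800ZS at 72.2% and 69.6%), methylation in every exon with a level, and exons far below the gene body level (28.2% in BnaC03G0486400ZS).

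Averaged over all members, the exons lay a little below the gene row. The mean over the exons of a gene was 2.30% against 2.78% for its gene row in Cn members, and 1.77% against 2.07% in An members, lower on 9 of 9 C and 10 of 10 A chromosomes, although the median differences were close to 0 (-0.00899 and -0.00995 points). The gap lay in the more methylated genes, and the order was reversed in the classes above 0 and under 5%. With a gene body under 1%, exons averaged 0.609% against 0.481% for the gene row in Cn members, and 0.588% against 0.469% in An. At 1% to under 5% the values were 2.32% against 2.18% in Cn and 2.07% against 2.02% in An. The classes were set by the gene row itself, which favours higher gene rows in the upper classes and lower ones in the lower classes. Among Cn members with a gene body of 10% to under 20%, the gene rows averaged 14.2% and the exons 7.04%, and 203 of 286 (71.0%) had an exon mean under 10%. Among Cn genes with 2 to 9 exons in the same class the gene rows averaged 15.1%, the exons 13.5%, and 38.2% of 3453 had an exon mean under 10%. In An the shares were 105 of 141 members (74.5%) and 44.3% of 1626 genes with 2 to 9 exons. At a gene body of 20% or more the share was 34 of 98 Cn members (34.7%) against 13.4% of 3260 Cn genes with 2 to 9 exons, and 13 of 47 An members (27.7%) against 11.6% of 1685. Exon rows and gene rows are averaged over different lengths, and intron lengths were not given in the file.

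The flanks of heavily methylated members varied. Of the 99 Cn members at 20% or more, 13 (13.1%) had both flanks at 20% or more, close to the 16.7% of the other Cn genes of that class, and 10 had both flanks under 5%. Of the 48 An members, 9 (18.8%) had both flanks at 20% or more, close to the 19.9% of the other An genes of that class, and 6 had both under 5%. The counts with both flanks under 5% were not set against the other genes. Their mean flanks were 14.0% upstream and 13.1% downstream in Cn, and 15.1% and 14.4% in An, while members with a gene body of 1% to under 5% had 11.1% and 7.08% in Cn, and 8.63% and 5.03% in An.

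Between the subgenomes, Cn members were more methylated than An members in every region. The Cn minus An difference was 0.710 points in the gene body (2.79% against 2.08%), 2.43 points upstream (10.7% against 8.30%) and 2.11 points downstream (7.37% against 5.26%), each larger than the larger SD of chromosome means (0.308, 1.01 and 0.453). Over all genes Cn stood above An too, at a mean over all bins of 8.58% against 6.22%. After each subgenome was divided by that mean, and both were brought back to percent with the average of the 2 means (7.40%), the difference between the members was -0.0685 points in the gene body, -0.626 points upstream and 0.0941 points downstream.

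In homoeologous pairs the mean gene body difference depended on which pairs were taken. Only the first 1998 rows of the homoeolog list were used, and 204 of these pairs had 10 or more exons in both genes, 158 of them with the An gene on A01 and 46 on A02. The same exon number was found in 135 of the 204 pairs. In the 202 pairs with both levels the gene body averaged 1.76% in Cn and 1.72% in An, and the upstream flank averaged 10.5% in Cn and 6.62% in An over 201 pairs. The mean gene body difference of 0.0398 points was smaller than the SD of 0.308 above. In the pairs with equal exon number it was 0.372 points (1.77% in Cn against 1.40% in An, 134 pairs with both levels). The median differences were 0.0301 and 0.129 points, and pairs 10 points or more apart numbered 5 and 2. The gene body rank correlation between partners was 0.342 over 202 pairs. Exons at the same position of pairs with equal exon number had a rank correlation of 0.189 over 1499 exon pairs. Both exons were at 10% or more in 15 exon pairs (1.00%), the Cn exon alone in 44 and the An exon alone in 50. Over the exons of all members, 6.69% in Cn and 5.05% in An were at 10% or more. The overlap was not tested against these shares.

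Of the 202 pairs, 5 (2.48%) differed by 10 points or more in the gene body, beside 83 of 1742 pairs (4.76%) with fewer than 10 exons in both genes. Among pairs that met the rule for named genes, the widest gap was that of BnaC02G0033600ZS, at 1.79%, and BnaA02G0030500ZS, at 20.6%, whose exons averaged only 1.48%. BnaC01G0181900ZS had 0.412% and its partner BnaA01G0143000ZS 18.2%, and all 12 exons of BnaA01G0143000ZS with a level were at 0. BnaC01G0087600ZS had 0.612%, a Cn minus An difference of -10.4 points from its partner BnaA01G0074000ZS, whose body bins were at 4.14%, 13.6%, 14.7% and 11.7% and whose exons averaged 2.91%. Its exons 3, 23 and 24 were at 14.1%, 28.2% and 14.8%. In these 3 pairs the An gene was the higher one, its flanks were under 5%, and the mean over its exons was below its gene row. Exon numbers were unequal in all 3 pairs (14 in Cn and 13 in An, 14 and 15, 19 and 24). The mean difference of 0.0398 points thus includes these 3 pairs, and that of 0.372 points does not.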

How the data were processed

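The authors trimmed BS-seq reads with Fastp, mapped them to the ZS11 genome with BatMeth2 and deposited a file of methylated fractions (0 to 1), with 12 bins for every gene, transcript and exon row of the annotation. Coverage, cytosine context and flank width are not given in the sources used here, so no depth or binomial interval can be stated. Fractions were converted to percent. Exon rows of the first transcript were counted, and 3153 genes on scaffolds were left out. Upstream bins of 5′ untranslated region rows were identical to those of the gene row (all 4 bins, no tolerance) in 92.3% of 15658 rows, which gave the direction.

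Named genes were, per subgenome, those with the most exons, the highest gene bodies (also with both flanks under 5%), the widest gaps between gene row and exons or between earlier and later exons, and 3 homoeolog pairs, all but the first of these with all 12 bins and at least 80% of exons with a level. The members, lists and rules were chosen with earlier results of these data known. Steps were tested on simulated data of 6000 genes, where exon numbers were recovered in 100%. The alternatives were medians, treatment of missing bins and of bins at 0, exon limits, thresholds and other sets of genes for comparison. Calculations used Python 3.11.15, numpy 2.4.6, pandas 2.3.3 and scipy 1.17.1, with matplotlib 3.10.9 for figures.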

Additional observations from a re-analysis of the deposited data

How the results depend on the processing

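No paired test over plants was possible because there was 1 library and no replicate, and all pairs of genes or exons came from that library. Of 125 alternative values of the comparisons, 81 moved by less than 1 SD over chromosomes, 33 moved by more without a change of sign, and 11 changed sign; the cause was not tested. With medians, members minus the others was 0.734 (Cn) and 0.772 (An) points in the gene body, -1.61 upstream and -3.50 downstream in Cn, and Cn minus An among members was 3.73 upstream and 0.341 in the gene body. Median exon levels were 0, so the middle minus first and middle minus last exon differences (1.39 and 0.851 in Cn, 1.27 and 0.847 in An by pooled means) became 0, and with the median over exons the exon minus gene row difference was -1.98 (Cn) and -1.60 (An). With bins at 0 left out, the gene body difference was -5.38 (Cn) and -3.93 (An), middle minus first 5.00 (Cn) and 5.65 (An), and middle minus last 5.51 (Cn) and 5.79 (An). With gene bodies of 20% or more left out, members minus the others was 0.140 upstream, -0.320 in the body and -1.35 downstream in Cn, and 0.857, -0.0242 and -0.793 in An. With all 12 bins required it was -2.14 in the body and -1.89 downstream in Cn and 0.522 upstream in An. With empty bins set to 0 it was -2.26 in the body and -2.04 downstream in Cn and 0.352 upstream in An, and with a limit of 15 exons 0.0901 upstream in An. Against neighbouring genes it was 0.626, -1.79 and -0.891 in Cn, and 1.16 upstream and -0.628 downstream in An. The share of high gene bodies, -8.88 (Cn) and -5.96 (An) points at 20%, was -13.1 and -8.93 at 10% and -3.59 and -2.73 at 30%. With each subgenome divided by its own mean and multiplied by the average of both means, Cn minus An was -0.626 points upstream, -0.0685 in the body and 0.0941 downstream. In homoeolog pairs the body difference was 0.0398 points, and 0.372 points with equal exon numbers. A level near 0 is limited by the unknown coverage of short exons.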
